A study of Mus musculus with 4 samples.

Results

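Lpl, Cst7, Gpnmb, Lgals3, Cd9, Fabp5, Igf1 and Ch25h are 8 genes of the disease-associated microglia programme, and their chromatin accessibility was described in microglia with and without the transcription factor IRF8. The members were all accessible regions that overlapped these gene bodies or the 10 kb on either side of them, on the GRCm38 mouse genome with the GENCODE M21 annotation. They came to 79 regions of the 155546 found in all. A region here is a stretch covered by at least 1 strict peak, a deposited peak with −log10 q of 2 or more, after strict peaks of the 4 libraries were merged.

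The data were ATAC-seq peak lists from 4 libraries, 2 labelled WT and 2 labelled IRF8KO. In ATAC-seq a transposase cuts accessible DNA and inserts sequencing adapters, so that many cuts mark open chromatin. All mice were C57BL/6, 3 months old and untreated. Microglia were isolated without enzymes and sorted by flow cytometry, and each library was amplified by 12 cycles of PCR. The labels do not say how Irf8 was disrupted, in which cells, or whether the replicates came from different mice, so p-values measure only the spread between these libraries. Pileup, the number of extended cut sites stacked over a peak summit, was divided by the library's tags and multiplied by 1000000, and is called scaled pileup. Bare values given for libraries are scaled pileups, first for replicate 1 and then for replicate 2.

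Disease-associated microglia form around amyloid plaques, dying neurons and damaged myelin. They lower the genes of resting microglia and raise genes for lipid uptake, lysosomal digestion and secreted signals. Lpl encodes lipoprotein lipase, which releases fatty acids from lipoproteins, Fabp5 encodes a fatty acid carrier of the cytosol, and Ch25h encodes cholesterol 25-hydroxylase, an interferon-inducible enzyme. Cst7 encodes cystatin F, an inhibitor of lysosomal cysteine proteases. Gpnmb encodes a transmembrane glycoprotein of lysosomal stress, and Lgals3 encodes galectin-3, a lectin that binds damaged lysosomes. Cd9 encodes a tetraspanin of the cell membrane, and Igf1 encodes insulin-like growth factor 1. IRF8 binds DNA poorly alone and pairs with PU.1, the main myeloid ETS factor, on composite ETS-IRF sites.

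The bases around 7 of the named summits are given for GRCm38, on the plus strand from 5′ to 3′, over 201 bp centred on the summit. They include regions that did not pass the test below or could not be tested. Lgals3 at -5.6 kb, which passed it, is not among them. Distances are from the annotated gene start, positive in the direction of transcription. Cd9 and Ch25h lie on the minus strand, so their genes read the complement of the bases printed. Capitals mark matches to any of the 10 motifs searched. The first 3 windows had their higher pileup in the WT libraries. No motif searched matched the Cd9 or the Fabp5 window, so these are in lower case throughout. The window 8.0 kb before Lgals3 holds PU.1 motifs, GAGGAAGT, and an ETS-IRF match, TTTCTCTTCC, which is GGAA and GAAA with 2 bases between them read from the minus strand.
Cd9 last part of the gene, +33.4 kb, chr6:125461332-125461532: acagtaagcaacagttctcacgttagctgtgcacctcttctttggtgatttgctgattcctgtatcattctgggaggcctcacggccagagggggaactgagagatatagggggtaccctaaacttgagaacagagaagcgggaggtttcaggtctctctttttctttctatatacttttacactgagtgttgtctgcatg
Fabp5 downstream, +13.5 kb, chr3:10025910-10026110: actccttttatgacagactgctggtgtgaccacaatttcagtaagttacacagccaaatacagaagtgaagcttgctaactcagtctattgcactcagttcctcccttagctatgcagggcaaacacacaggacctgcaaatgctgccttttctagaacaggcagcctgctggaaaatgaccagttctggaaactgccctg
Lgals3 upstream, -8.0 kb, chr14:47359665-47359865: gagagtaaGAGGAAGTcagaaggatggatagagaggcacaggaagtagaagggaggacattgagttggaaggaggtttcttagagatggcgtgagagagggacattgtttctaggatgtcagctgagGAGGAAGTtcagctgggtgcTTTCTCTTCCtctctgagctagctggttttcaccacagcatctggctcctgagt

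The other 4 windows had their higher mean pileup in the IRF8KO libraries. The Ch25h window holds a pair of AP-1 motifs, TGAGTCA, and the Cd9 intron holds a RUNX motif, TGTGGTT, and a CEBP motif. The Lgals3 intron holds AP-1, RUNX, CEBP and PU.1 motifs. The Gpnmb window holds TCACATGA, an E-box of the form bound by the lysosomal regulators of the MiT family, and a CEBP motif.
Ch25h downstream, +3.2 kb, chr19:34471862-34472062: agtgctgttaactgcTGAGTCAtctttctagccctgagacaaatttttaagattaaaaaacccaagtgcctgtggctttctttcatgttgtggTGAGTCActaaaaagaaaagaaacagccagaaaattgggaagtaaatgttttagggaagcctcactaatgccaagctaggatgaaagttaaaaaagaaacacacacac
Cd9 intron, +12.9 kb, chr6:125481751-125481951: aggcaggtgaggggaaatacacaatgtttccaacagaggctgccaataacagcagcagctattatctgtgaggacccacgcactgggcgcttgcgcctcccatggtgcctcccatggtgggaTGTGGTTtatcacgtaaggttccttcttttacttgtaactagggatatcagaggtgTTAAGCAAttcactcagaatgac
Lgals3 intron, +6.9 kb, chr14:47374509-47374709: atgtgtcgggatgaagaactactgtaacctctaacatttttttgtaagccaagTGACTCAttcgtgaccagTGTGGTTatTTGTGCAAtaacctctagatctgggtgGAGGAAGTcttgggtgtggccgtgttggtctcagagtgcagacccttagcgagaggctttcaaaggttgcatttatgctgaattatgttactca
Gpnmb upstream, -0.6 kb, chr6:49035807-49036007: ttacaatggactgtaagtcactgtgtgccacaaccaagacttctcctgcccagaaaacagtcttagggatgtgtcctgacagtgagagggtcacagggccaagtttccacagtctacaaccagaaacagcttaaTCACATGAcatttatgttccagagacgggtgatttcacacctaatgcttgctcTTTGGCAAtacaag

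Depth and background differed between libraries. The WT libraries held 46948938 and 48896408 tags and the IRF8KO libraries 78793572 and 66224648, so weak peaks could be called at a lower scaled pileup in IRF8KO. The lowest strict peaks stood at 0.192 and 0.184 scaled pileup in WT and at 0.152 and 0.166 in IRF8KO. Over the 58550 regions with a deposited peak in all 4 libraries, IRF8KO was lower by a median of -0.31 on the log2 scale, and the lowest library median was that of IRF8KO replicate 1. The test was therefore also run centred, after subtraction of each library's median over those regions, and the centred value is given for every member that passed either way. Tags were 50 bp long in WT and 49 bp in IRF8KO, so depth and tag size both followed genotype and cannot be told apart from it. All 8 microglia marker genes had a strict peak within 1 kb of a start site in every library. The summed scaled pileup at these 8 genes was 25.1 and 18.0 in WT and 10.9 and 17.8 in IRF8KO. At 5 border macrophage markers it was 1.09 and 1.06 in WT against 2.53 and 4.45 in IRF8KO. Cd163 was at 0 in both WT libraries, Lyve1 was at 0 in IRF8KO replicate 1, and 4 of the 5 markers had a peak in every library but IRF8KO replicate 2, which had all 5. At 5 endothelial markers the sums were 7.16 and 6.05 in WT and 1.43 and 2.20 in IRF8KO, most of it at Cdh5 in WT (5.86 and 4.81, against 0.647 and 0.936), while Pecam1 overlapped between the genotypes. At 5 neuron markers they were 1.17 and 1.53 in WT and 0.736 and 0.861 in IRF8KO. At 5 astrocyte markers they were 3.02 and 2.15 in WT and 1.85 and 3.64 in IRF8KO, and the genotypes overlapped. At 5 B and T cell markers they were 1.28 and 1.31 in WT and 3.58 and 3.55 in IRF8KO, with Cd79a and Cd3e at 0 in all 4. At 7 monocyte and neutrophil markers they were 1.36 and 0.920 in WT and 0.279 and 0.453 in IRF8KO, with Ccr2 and S100a9 at 0 in all 4. The largest part in WT was Ltf (0.958 and 0.491, against 0 and 0.196), and S100a8 overlapped between the genotypes. The part of other cells in the results on the 8 genes was not tested, and a change in every cell cannot be told apart from a change in the mix of cells.

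The 8 windows held similar numbers of accessible sites in both genotypes, but a few single sites differed several-fold. The WT libraries had 69 and 78 deposited peaks there and the IRF8KO libraries 72 and 74, of which 6, 12, 11 and 7 were weak peaks outside every region. There were 59 and 51 strict peaks in the WT libraries, against 52 and 63 in the IRF8KO libraries. The IRF8KO count was the lower one in replicate 1 and the higher one in replicate 2, so the genotypes overlapped. Of the 79 regions, 39 had a deposited peak in all 4 libraries. Another 4 were open only in WT, which means that each WT library had a strict peak and no IRF8KO library had a deposited peak, however weak. That was 5.06% of the members, against 5.58% of all 155546 regions. The converse held for 5, or 6.33% of the members, against 3.86% of all regions. The remaining 31 fell in neither class and were not in all 4 libraries.

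**Figure D1:**
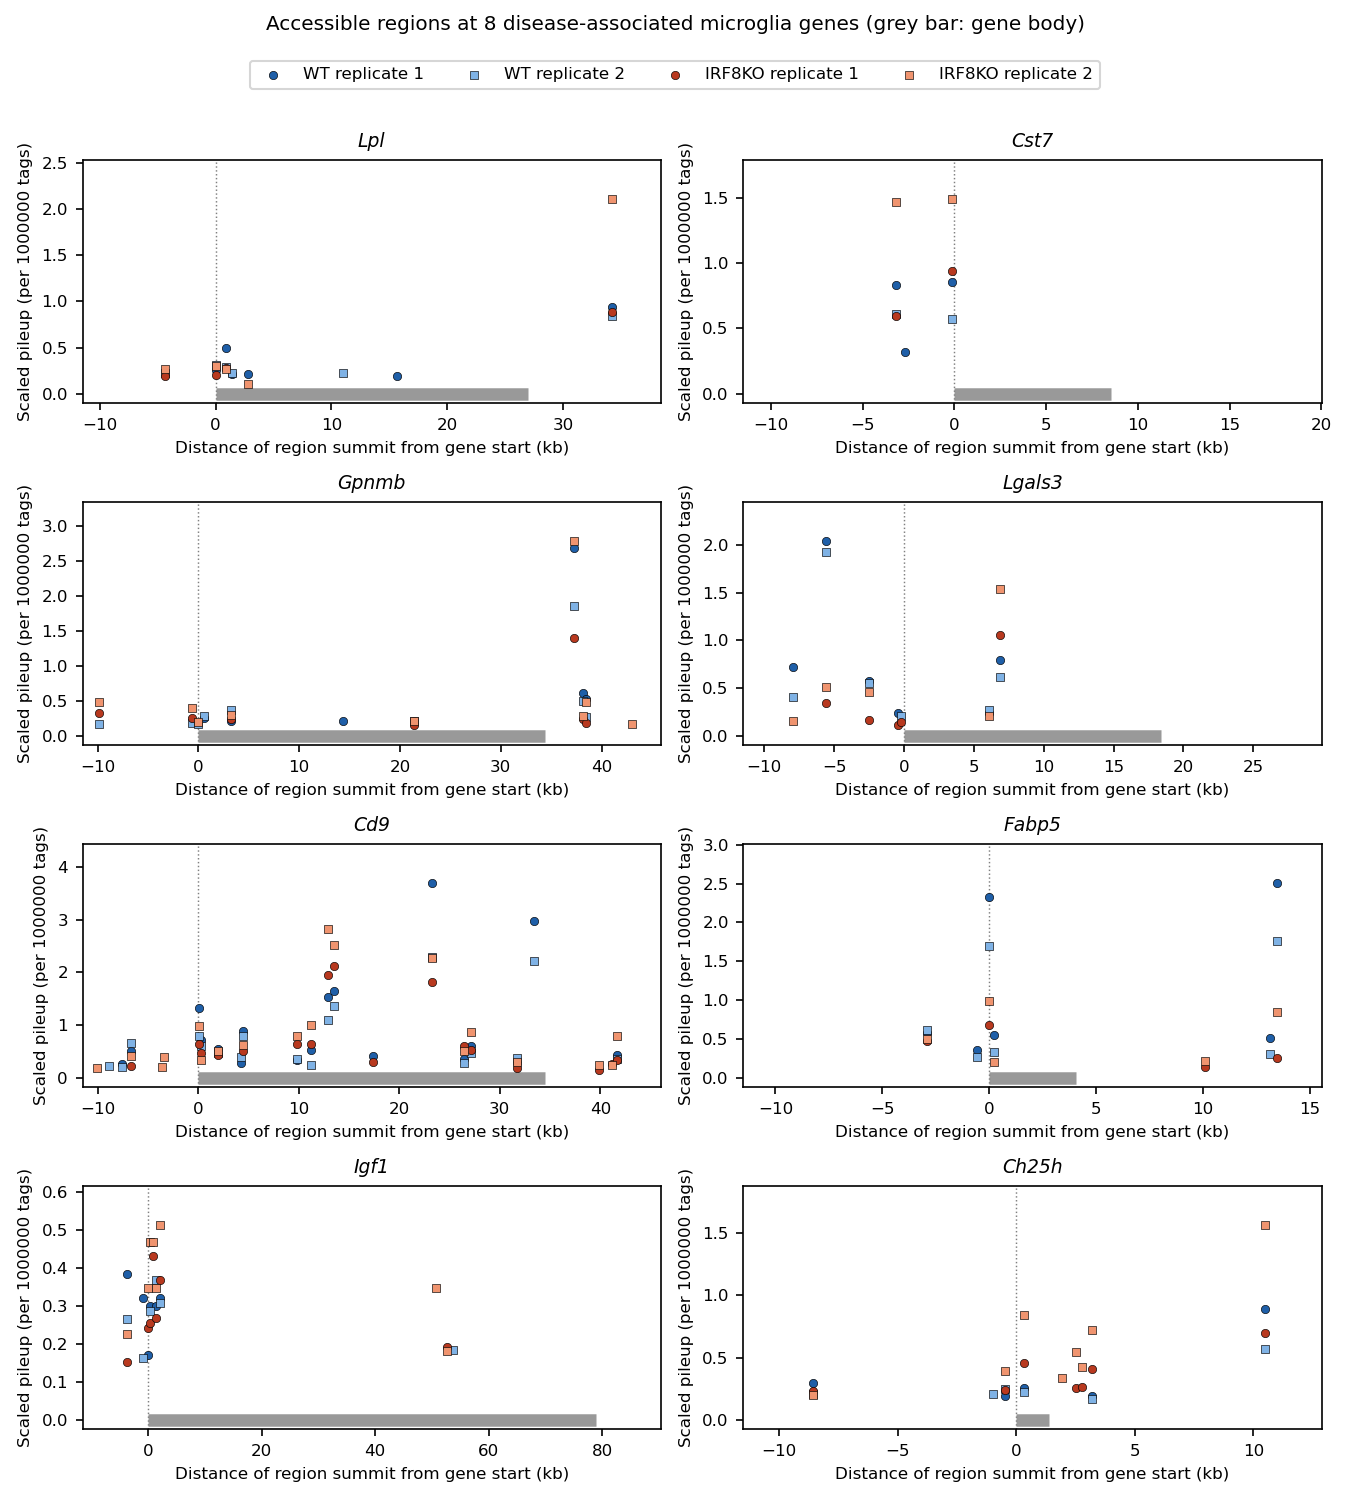
Scaled pileup (vertical axis, linear, with its own range for each gene) of every member region against its summit's distance from the gene start in kb (horizontal axis), 1 panel per gene, with 1 marker per library and region and a grey bar for the gene body. Both IRF8KO markers lie below both WT markers at 12 of the regions with a peak in all 4 libraries and above both at 10, and the WT markers of Cd9 at +33.4 kb (2.98 and 2.21) have no IRF8KO counterpart.

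By gene, the strict peaks of WT replicates 1 and 2 and IRF8KO replicates 1 and 2 numbered 7, 6, 5 and 5 for Lpl and 7, 5, 3 and 5 for Fabp5. They numbered 7, 5, 9 and 9 for Ch25h, 3, 2, 2 and 2 for Cst7, 8, 6, 7 and 9 for Gpnmb, and 6, 6, 5 and 5 for Lgals3. They numbered 16, 16, 15 and 20 for Cd9 and 5, 5, 6 and 8 for Igf1. Lpl and Lgals3 had fewer in both IRF8KO libraries and Igf1 and Ch25h more. Over the whole peak lists, both IRF8KO libraries also had fewer strict peaks than either WT library. IRF8KO replicate 1 had 83996 and IRF8KO replicate 2 had 95921, against 97473 for WT replicate 1 and 98863 for WT replicate 2. Lpl and Lgals3 thus went the way of the whole lists, and Igf1 and Ch25h the other way. The exact two-sided permutation test used for the counts by gene gives no p below 0.333 with 2 against 2 libraries.

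**Figure D2:**
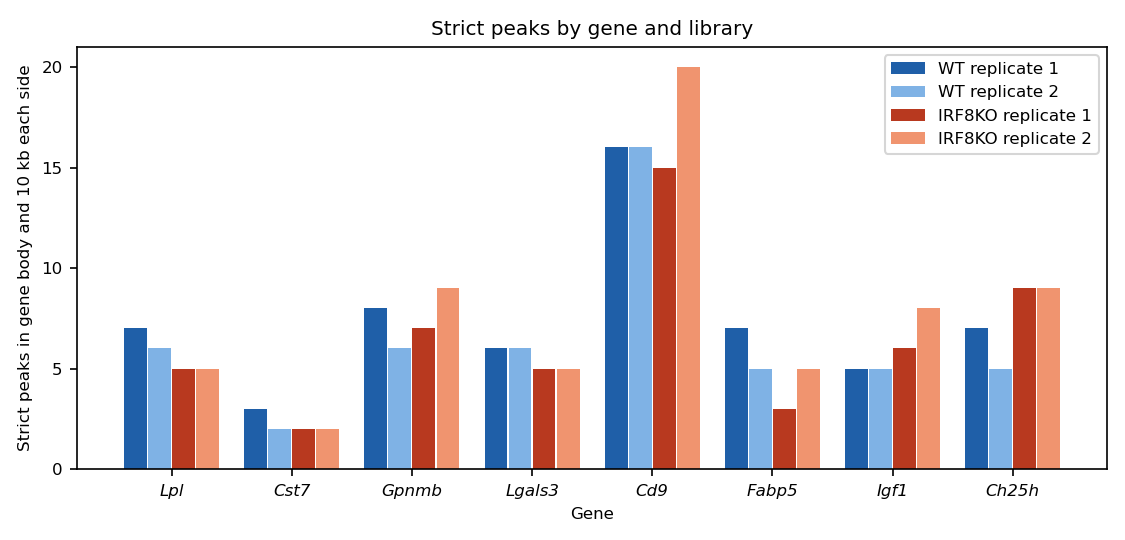
Strict peaks (vertical axis, number) within each of the 8 gene windows (horizontal axis), 1 bar per library. Cd9 has the most in every library, 15 to 20, and Cst7 the fewest, 2 or 3.

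Levels were compared over the 58550 regions with a peak in all 4 libraries, with limma on log2 scaled pileup and Benjamini-Hochberg adjustment over all of them. Of the 39 members tested, 2 were lower in IRF8KO at an adjusted p under 0.05, against 6.83% of all regions, and 1 was higher, against 2.81%. An unadjusted p under 0.05 in limma was reached by 8 of the 39, and by 11830 of all 58550 regions. After centring, 3 were lower, against 12.5% of all regions, and 12 were higher, against 13.3%. Both IRF8KO libraries were below both WT libraries at 12 members, while 37.1% of all regions showed this, and above both at 10, while 11.9% of all regions did. The median difference was -0.12 on the log2 scale over the members and -0.31 over all regions, or 0.18 and -0.00 after centring. None of the members passed when WT replicate 1 or WT replicate 2 was left out, where 0.241% and 0.640% of all regions were lower and 0.212% and 0.169% higher. With an IRF8KO library left out, 5 were lower without IRF8KO replicate 2, where 21.2% of all regions were, and 5 higher without IRF8KO replicate 1, where 6.46% of all regions were. The 3 members that passed with all libraries were the Lgals3 region at -5.6 kb, the Fabp5 region at +13.5 kb and the Ch25h region at +3.2 kb.

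**Figure D3:**
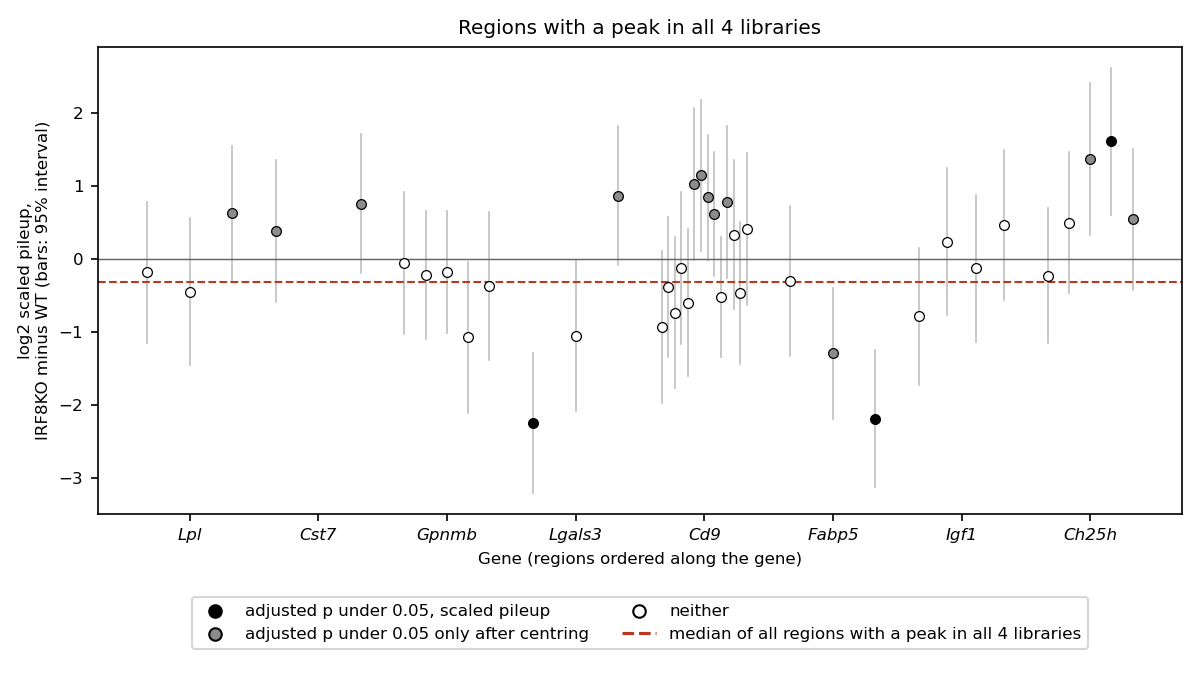
Log2 difference in scaled pileup, IRF8KO minus WT (vertical axis, log2 units, bars for the 95% interval), for the 39 member regions with a peak in all 4 libraries, grouped by gene, with a dashed line at the median of all 58550 such regions (-0.31). Black points passed the test and grey ones only after centring, and the lowest are Lgals3 at -5.6 kb (-2.24) and Fabp5 at +13.5 kb (-2.18).

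Among the genes of lipid handling, Fabp5 had lower pileup in both IRF8KO libraries at its start and beyond its end, and the second of these differences passed the test. The Fabp5 start region, chr3:10012223-10012687, overlaps the first exon, and its scaled pileup was 2.32 and 1.70 in WT and 0.673 and 0.982 in IRF8KO. Both IRF8KO libraries were below both WT libraries, by -1.29 on the log2 scale (SE 0.46). This missed the threshold (limma adjusted p 0.0517) and passed it after centring (difference -0.98, limma adjusted p 0.000357). On fold enrichment over the local background, the authors' ratio, it was -0.49 and did not pass (limma adjusted p 0.340). It also passed without the trend (limma adjusted p 0.0333) and without IRF8KO replicate 2 (0.000987). It did not pass with the replicate number as a block (limma adjusted p 0.579), or without WT replicate 1 (0.9999), WT replicate 2 (0.653) or IRF8KO replicate 1 (0.0712). The region 13.5 kb downstream, chr3:10025866-10026155, showed the larger difference of the pair, with 2.51 and 1.76 in WT and 0.254 and 0.846 in IRF8KO. Both IRF8KO libraries were again below both WT libraries, 3.89-fold on average, and the difference of -2.18 (SE 0.48) had a limma adjusted p of 0.000239. Centred, it was -1.88. It ranked 1108 from the lowest of 58550. Without WT replicate 1 or 2 the limma adjusted p was 0.572 or 0.187, with the sign unchanged. Without IRF8KO replicate 1 or 2 the difference was -1.31 or -3.05. On fold enrichment it was -1.48 and did not pass (limma adjusted p 0.0650), nor did it with the replicate number as a block (limma adjusted p 0.10). The site lies outside Fabp5, close to the start of the long non-coding gene Gm38335, and the peak lists do not show which gene it acts on. Next to it, a region at +13.1 kb was open only in WT, at 0.511 and 0.307. At -2.9 kb the values were 0.575 and 0.614 in WT, against 0.470 and 0.498 in IRF8KO. Both IRF8KO values were the lower ones, and this difference of -0.30 was close to the median of all regions and 0.01 after centring.

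Ch25h, a gene without introns, was higher in both IRF8KO libraries over the gene and just past it. The region over it, chr19:34474279-34475476, also overlaps a non-coding exon of the gene Gm26902, whose start lies within 1 kb. This region stood at 0.256 and 0.225 in WT and at 0.457 and 0.846 in IRF8KO. Both IRF8KO values were above both WT values, by 1.37 on the log2 scale (SE 0.53), which missed the threshold (limma adjusted p 0.0798). It passed after centring (1.68, limma adjusted p 4.4e-05), without the trend (limma adjusted p 0.0204) and without IRF8KO replicate 1 (limma adjusted p 0.00332). It did not pass on fold enrichment (0.60, limma adjusted p 0.396), with the replicate number as a block (0.471), or without IRF8KO replicate 2 (0.93, limma adjusted p 0.151), WT replicate 1 (limma adjusted p 0.953) or WT replicate 2 (0.866). Downstream at +3.2 kb, chr19:34471822-34472116, the values were 0.192 and 0.164 in WT and 0.406 and 0.725 in IRF8KO. This difference of 1.62 (SE 0.51), 3.18-fold on average, passed with a limma adjusted p of 0.0218, and centred it was 1.92. The WT values lay at the level of the weakest strict peaks, so the fold rests on few cut sites. Without WT replicate 1 or 2 or IRF8KO replicate 2 the limma adjusted p was 0.731, 0.724 or 0.0633, with the sign unchanged. On fold enrichment the difference was 0.84 and did not pass (limma adjusted p 0.169), nor did it with the replicate number as a block (limma adjusted p 0.224).

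Between these sites, 2 Ch25h regions were open only in IRF8KO. The one at +2.5 kb stood at 0.254 and 0.544, and the one at +2.8 kb at 0.267 and 0.423. Both were weak peaks in IRF8KO replicate 1, and neither was counted as open only in IRF8KO when −log10 q of 5 or more was required. The most accessible Ch25h region, at +10.5 kb, stood at 0.895 and 0.573 in WT and at 0.698 and 1.57 in IRF8KO, and the groups overlapped. Its centred difference of 0.85 passed (limma adjusted p 0.00890), and without IRF8KO replicate 2 the uncentred difference turned to -0.04. At -0.5 kb the values were 0.192 and 0.245 in WT and 0.241 and 0.393 in IRF8KO, and the groups overlapped. Of the 5 border macrophage markers, Mrc1, Cd163 and Pf4 were higher in both IRF8KO libraries than in both WT libraries and Lyve1 and F13a1 were not, and their part in this was not tested.

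Lpl was barely accessible at its start in either genotype. The region there, chr8:68880509-68880771, stood at 0.256 and 0.307 in WT and at 0.203 and 0.302 in IRF8KO, with overlapping groups and a difference of -0.18 (95% interval -1.14 to 0.79) that turned to 0.13 after centring. In an intron, the region at +0.9 kb stood at 0.490 and 0.286 in WT and at 0.279 and 0.272 in IRF8KO. Both IRF8KO values were the lower ones, by an amount that did not pass (limma adjusted p 0.696). A weak intronic region at +1.4 kb was open only in WT, at 0.213 and 0.225, close to the lowest strict pileups. The most accessible Lpl region lay at +34.2 kb, 3′ of the gene, with 0.937 and 0.839 in WT and 0.888 and 2.11 in IRF8KO. Only IRF8KO replicate 2 stood apart there, and the groups overlapped. Its difference of 0.63 did not pass, and the centred one of 0.93 did (limma adjusted p 0.00169).

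Of the lysosomal and phagocytic genes, Cst7 kept its start open in both genotypes. Its start region, chr2:150569952-150570618, stood at 0.852 and 0.573 in WT and at 0.939 and 1.49 in IRF8KO. Both IRF8KO values were the higher ones, by 0.76 (SE 0.49), which did not pass (limma adjusted p 0.403) before centring and did after it (1.07, limma adjusted p 0.000568). Upstream at -3.2 kb the values were 0.831 and 0.614 in WT and 0.596 and 1.46 in IRF8KO, and the groups overlapped. This difference of 0.39 did not pass (limma adjusted p 0.725), and the centred one of 0.69 did (limma adjusted p 0.0448). A region at -2.7 kb had a peak in WT replicate 1 alone, at 0.319.

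Lgals3 regions differed in both directions, and the region of largest difference lay upstream and fell in IRF8KO. The region at -5.6 kb was the most accessible of Lgals3 in WT, at 2.04 and 1.92, and stood at 0.343 and 0.513 in IRF8KO. Both IRF8KO libraries were far below both WT libraries, 4.63-fold on average. The difference of -2.24 (SE 0.49) had a limma adjusted p of 0.000192, and centred it was -1.94. On fold enrichment it was -1.20 and passed (limma adjusted p 0.0387), and with the replicate number as a block it did not pass (limma adjusted p 0.0869). It ranked 1011 from the lowest of 58550, the lowest of all 39 members tested. Without WT replicate 1 or 2 the limma adjusted p was 0.402 or 0.275, with the sign unchanged. Of the motifs searched, only RUNX matched the summit window at -5.6 kb. The region at -8.0 kb, which holds the ETS-IRF match, stood at 0.724 and 0.409 in WT, had no deposited peak in IRF8KO replicate 1 and a peak of 0.151 in IRF8KO replicate 2. At -2.5 kb the values were 0.575 and 0.552 in WT and 0.165 and 0.453 in IRF8KO, a difference of -1.04 that did not pass (limma adjusted p 0.242). It was -0.31 without IRF8KO replicate 1, -1.77 without IRF8KO replicate 2, where it passed (limma adjusted p 0.00246), and -0.12 on fold enrichment. Of the 2 upstream regions with a peak in all 4 libraries, 1 passed.

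Within Lgals3, the region at +6.9 kb, chr14:47374102-47374745, ran the other way. Its values were 0.788 and 0.614 in WT and 1.05 and 1.54 in IRF8KO, and the groups did not overlap. The difference of 0.87 did not pass (limma adjusted p 0.306), and the centred one of 1.18 did (limma adjusted p 0.000110). The region lies next to an alternative start of Lgals3 in the annotation. The first annotated start had no region within 100 bp of it. At -0.2 and -0.4 kb there were weak peaks in 1 library of each genotype. A second region within the gene, at +6.1 kb, stood at 0.234 and 0.266 in WT, had no peak in IRF8KO replicate 1 and stood at 0.211 in IRF8KO replicate 2, so it was not tested.

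Gpnmb was hardly accessible at its start. The region there stood at 0.164 in WT replicate 2 and 0.196 in IRF8KO replicate 2 and had no peak in the other libraries. At -0.6 kb, where the E-box lies, there was no peak in WT replicate 1, and the values were 0.184 in WT replicate 2 and 0.254 and 0.393 in IRF8KO. At -9.9 kb the pattern was the same, with 0.164 in WT replicate 2 and 0.330 and 0.483 in IRF8KO. These sites had no value in 1 WT library, so they were not tested. A region at +0.5 kb in an intron was open only in WT, at 0.256 and 0.286. The most accessible region of the window, at +37.3 kb, lies by the start of the neighbouring gene Malsu1 and stood at 2.68 and 1.86 in WT and at 1.40 and 2.79 in IRF8KO, with overlapping groups. Beside it, the region at +38.1 kb stood at 0.618 and 0.491 in WT and 0.241 and 0.287 in IRF8KO, a difference of -1.07 that did not pass (limma adjusted p 0.225). Within Gpnmb, the 2 intragenic regions with a peak in all 4 libraries, at +3.2 and +21.4 kb, did not separate the genotypes.

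**Figure D4:**
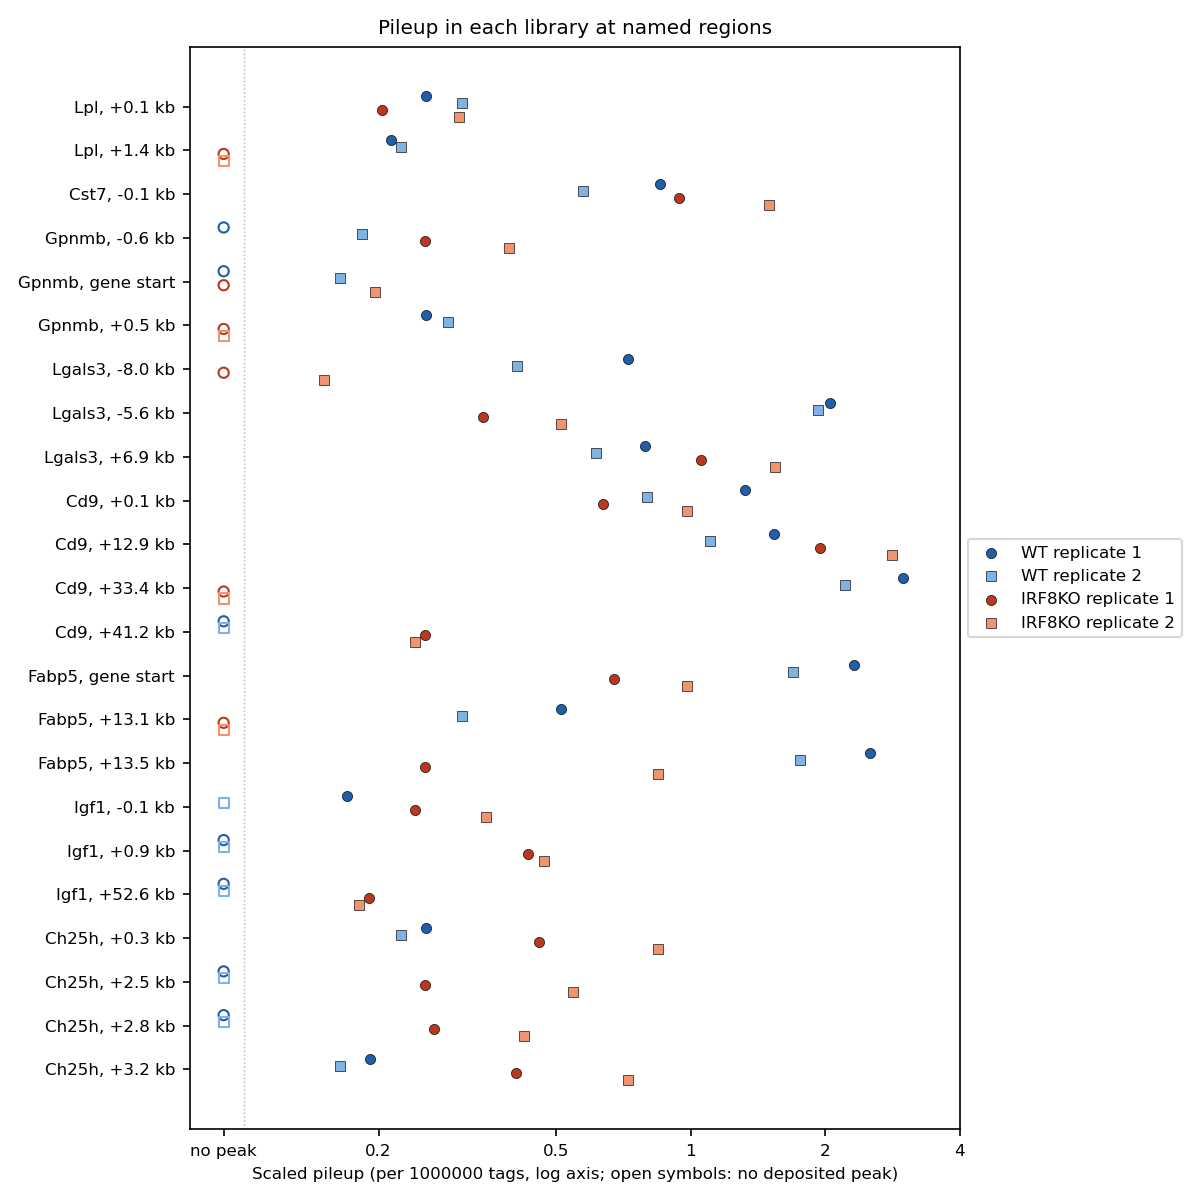
Scaled pileup (horizontal axis, log scale) in each of the 4 libraries at gene starts, at regions open in 1 genotype only at regions past the threshold and at the windows printed as sequence, 1 row per region by gene and distance from the gene start. Open symbols at the left are libraries with no deposited peak, and both IRF8KO libraries lie there at Cd9 +33.4 kb, Fabp5 +13.1 kb, Lpl +1.4 kb and Gpnmb +0.5 kb.

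Cd9 had the most accessible regions of the 8 genes, 24 of the 79. The clearest change was a region open only in WT at +33.4 kb, chr6:125460989-125461601, in the last part of the gene, with 2.98 and 2.21 in WT. Its deposited −log10 q values were 145 and 107, and neither IRF8KO library had any deposited peak there. The lowest deposited peaks in IRF8KO, anywhere, stood at 0.102 and 0.106. By mean scaled pileup it ranked 49 of the 8673 regions open only in WT, whose median was 0.366. It overlaps a coding exon, and its summit window is intronic. This region and the Igf1 region at +0.9 kb were the 2 that kept their class when −log10 q of 5 or more was required.

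The other tall regions of Cd9 were present in all 4 libraries. The start region, chr6:125494629-125494978, stood at 1.32 and 0.798 in WT and at 0.635 and 0.982 in IRF8KO, with overlapping groups. The region of highest mean scaled pileup among those with a peak in all 4 libraries, at +23.3 kb, stood at 3.71 and 2.29 in WT and at 1.81 and 2.28 in IRF8KO, a difference of -0.52 that did not pass (limma adjusted p 0.544). Both IRF8KO values were the lower ones there, though the value of IRF8KO replicate 2 was close to that of WT replicate 2.

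Between +9.8 and +13.6 kb, 4 intronic regions of Cd9 had both IRF8KO values above both WT values. The 3 farthest from the Cd9 start also overlap a non-coding exon of the gene Gm28809, whose start lies within 1 kb of the regions at +12.9 and +13.6 kb. At +9.8 kb the values were 0.341 and 0.348 in WT and 0.635 and 0.785 in IRF8KO. At +11.2 kb they were 0.532 and 0.245 in WT and 0.647 and 0.997 in IRF8KO. At +12.9 kb, chr6:125481749-125482316, they were 1.53 and 1.10 in WT and 1.94 and 2.82 in IRF8KO. None of the 4 passed before centring, with differences of 1.04, 1.15, 0.85 and 0.62 and limma adjusted p values of 0.249, 0.173, 0.257 and 0.457. All 4 passed after centring, at 1.34, 1.46, 1.15 and 0.93, with limma adjusted p values from 4.73e-06 to 0.000491. On fold enrichment the first 3 were 0.42, 0.51 and 0.28 and did not pass (limma adjusted p 0.456, 0.480 and 0.667). Leaving out 1 library moved the region at +11.2 kb from 0.59, without WT replicate 2, to 1.71, without WT replicate 1. Without IRF8KO replicate 1 the regions at +11.2 and +12.9 kb passed uncentred (limma adjusted p 0.0198 and 0.0373). One more intronic region, at +26.5 kb, stood at 0.362 and 0.286 in WT and 0.596 and 0.513 in IRF8KO, and is among the 12 counted as higher after centring (1.09, limma adjusted p 0.00932). Its peaks were strict in IRF8KO alone, so it entered the test through the group where it is high, and nothing is read from that call. Past the gene's end, a weak region at +41.2 kb was open only in IRF8KO, at 0.254 and 0.242. Other Cd9 regions had both IRF8KO values below both WT values without passing either way. At +0.3 kb the values were 0.724 and 0.593 in WT, against 0.470 and 0.332 in IRF8KO. At +4.5 kb they were 0.895 and 0.798 in WT, against 0.508 and 0.619 in IRF8KO. At -6.6 kb they were 0.511 and 0.654 in WT, against 0.228 and 0.408 in IRF8KO. Among Cd9 regions with a peak in all 4 libraries, values thus lay on both sides. None of them passed uncentred, and after centring only higher ones did.

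Igf1 had weak peaks throughout, the tallest at 0.513 scaled pileup. A region at +0.9 kb, chr10:87858947-87859310, was open only in IRF8KO, at 0.432 and 0.468. Its neighbours on both sides were present in all 4 libraries. At +0.4 kb the values were 0.298 and 0.286 in WT and 0.254 and 0.468 in IRF8KO, and at +1.4 kb they were 0.298 and 0.368 in WT and 0.267 and 0.347 in IRF8KO. At +2.1 kb they were 0.319 and 0.307 in WT, against 0.368 and 0.513 in IRF8KO. The groups overlapped at the first and second of these and not at the third, whose difference of 0.47 did not pass (limma adjusted p 0.680). Upstream at -3.6 kb the values were 0.383 and 0.266 in WT and 0.152 and 0.227 in IRF8KO, a difference of -0.78 that did not pass (limma adjusted p 0.380). A second region open only in IRF8KO, at +52.6 kb, stood at 0.190 and 0.181, under the lowest strict pileup of WT replicate 1, and was lost when all libraries were held to the same scaled pileup. The start itself, at -0.1 kb, had 0.170 in WT replicate 1, no peak in WT replicate 2, and 0.241 and 0.347 in IRF8KO.

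Motif matches within 100 bp of the summits were described for all 79 members, on both strands, beside the share of all 155546 regions with a match. An ETS-IRF match lay in 3 members, 3.80% against 4.30% of all regions. The 3 were the Lgals3 region at -8.0 kb, an Igf1 region at -0.8 kb with peaks in WT alone (0.319 and 0.164), and a Cd9 region at -3.4 kb with a peak in IRF8KO replicate 2 alone (0.393). None of the 3 had a peak in all 4 libraries, so none could be tested. An ISRE match, a pair of GAAA with 2 bases between, lay in 1 member, a Cd9 region at -10 kb with a peak of 0.181 in IRF8KO replicate 2 alone, against 3.13% of all regions. PU.1 motifs lay in 3 members, 3.80% against 7.74%. AP-1 motifs, TGANTCA, lay in 8 members, 10.1% against 8.12%, and CEBP motifs, TTGCNNAA, in 9, 11.4% against 9.54%. RUNX motifs lay in 8 members, 10.1% against 5.57%. MiT E-boxes, TCACNTGA, lay in 4 members, 5.06% against 2.78%. These 4 were the Gpnmb regions at the start and at -0.6 kb and the Cd9 regions at -6.6 and +9.8 kb. MEF2 motifs, CTA and TAG with 4 bases between, lay in 5 members, 6.33% against 3.36%. An NF-kB motif, GGGA and TTCC with 2 bases between, lay in 1 member, 1.27% against 1.05%. No member held a MAF motif, TGCTGA and GCA with 4 bases between, and 0.543% of all regions did.

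A wider list of 40 other disease-associated genes gave 418 regions. Of these, 23 were open only in WT and 33 only in IRF8KO, or 5.50% and 7.89%, beside 5.58% and 3.86% of all regions. Of the 213 with a peak in all 4 libraries, 22 were lower in IRF8KO and 9 higher, beside 6.83% and 2.81% of all regions, and the median difference was -0.23. After centring, which moved all regions from 3997 lower and 1643 higher to 7298 and 7815, the list had 33 lower and 51 higher and a median of 0.08. The lower ones included sites at Spp1 (2 of 3 tested), which encodes osteopontin, and at Ccl6 (2 of 3), a chemokine. The higher ones included sites at Apoe (2 of 6), which encodes the main lipid carrier of the brain. A list of 16 genes of resting microglia gave 266 regions, with 19 open only in WT and 9 only in IRF8KO, or 7.14% and 3.38%. Of its 138 tested, 11 were lower and 4 higher, beside the same 6.83% and 2.81%, and the median difference was -0.42. After centring 22 were lower and 13 higher, and the median was -0.12. The members' median of -0.12 lay above both lists and above all regions, and the 39 values behind it include sites of opposite direction at Fabp5 and Ch25h.

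Start-site levels were compared with those of the wider list, as the Euclidean distance of 4 log2 values of scaled pileup, over the 30 genes with a start-site peak in all 4 libraries. Fabp5 was nearest to Ctsz, which encodes the lysosomal protease cathepsin Z, at 0.44. Ctsz stood at 1.77 and 1.49 in WT and at 0.673 and 1.03 in IRF8KO. It was picked by these same 4 values, so the direction it shares with Fabp5 follows from the choice. Cst7 and Cd9 were both nearest to Lyz2, the lysozyme of myeloid cells, at 0.61 and 0.88, and Lpl was nearest to Hif1a at 1.08. Ch25h was nearest to Itgax at 1.53, the farthest of these pairs. Gpnmb, Lgals3 and Igf1 had no region with a peak in all 4 libraries within 100 bp of the first annotated start and were not compared.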

How the data were processed

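ATAC-seq peak lists of 2 WT and 2 IRF8KO libraries were grouped by their labels. Each list comes from 1 library and from MACS 2.1.1.20160309, run by the authors with no control sample, per the file headers. The headers give a p cutoff of 0.01, a tag shift of -37 bp, an extension to 73 bp and 10 kb of local background. Per the submitters' processing notes, bcl2fastq, Bowtie2, MACS2 and deepTools were used with mm10, the UCSC name of GRCm38. The deposited pileup is a signal, not scaled for depth, and was divided here by the header's tags and multiplied by 1000000 (scaled pileup). The deposited fold enrichment is a ratio to the local background. The deposited −log10 p and −log10 q are the authors' values. The headers say that q was not calculated, yet its column was filled and served for the thresholds here. A threshold on q is reached at lower scaled pileup in a deeper library.

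Strict peaks (−log10 q of 2 or more) on 20 chromosomes, the autosomes and X, were merged into regions. A region's value in a library is the highest pileup of the summits inside it. Where no summit lay inside, it is the highest pileup of any deposited peak that overlaps the region by 1 bp or more. Regions with a peak in all 4 libraries were tested with limma 3.58.1 in R 4.3.3 with a mean-variance trend, IRF8KO against WT, and Benjamini-Hochberg adjustment over all of them. Setting scaled pileup across separately called lists assumes that pileup scales with tag number. On simulated data over the 58550 regions, the test recovered 38% of 100 regions changed by 1 on the log2 scale and 100% of 100 changed by 2, with 9 false calls. The simulated libraries had their medians removed and the same spread at every region. The uncentred test kept the medians of the real libraries, so these rates do not carry over to it. Motifs were searched in the 201 bp around each summit. The sequence of 1 summit window is not reported here.

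The members, gene lists and tests were chosen with earlier results of these data known. The regions named were the one over each gene start, those open in 1 genotype only, the one of highest mean pileup, those past the threshold, and at most 2 others with the largest difference between groups that did not overlap. All other regions named, among them Lgals3 at -8.0 kb, Cd9 at +12.9, +13.6 and +26.5 kb and Gpnmb at -0.6 kb, were chosen after their values were seen. Of the wider list, the rule named the nearest gene by start-site level, and Spp1, Ccl6 and Apoe were chosen after their values were seen. Alternatives were a stricter and a looser peak threshold, another overlap, gene bodies alone, centring, fold enrichment, no trend, a replicate block and each library left out. Holding all libraries to the same scaled pileup was added after seeing the data.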

Additional observations from a re-analysis of the deposited data

How the results depend on the processing

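Members open in 1 genotype only were few and mostly weak. Requiring −log10 q of 5 or more left 1 open only in WT and 1 only in IRF8KO of 53, beside 5.16% and 3.51% of all regions. Using every deposited peak gave 8 and 9 of 111, beside 3.70% and 3.65%. Gene bodies alone left 3 open only in WT and 2 only in IRF8KO of 39, beside 5.58% and 3.86% of all regions. Leaving out 1 library at a time gave 4 to 10 open only in WT and 5 to 13 only in IRF8KO, where fewer libraries have to match. Those open only in WT came to 9 of 70, 10 of 76 and 7 of 73 without WT replicate 1, WT replicate 2 and IRF8KO replicate 2, beside 17.9%, 15.3% and 10.3% of all regions. Those open only in IRF8KO came to 8 of 76, 13 of 80 and 5 of 73 without WT replicate 2, IRF8KO replicate 1 and IRF8KO replicate 2, beside 5.69%, 15.0% and 14.4%. Without IRF8KO replicate 1, 4 of 80 were open only in WT, beside 7.03%. Without WT replicate 1, 6 of 70 were open only in IRF8KO, beside 6.09%. The same scaled pileup for all libraries gave 4 open only in WT and 4 only in IRF8KO of 74, beside 6.61% and 3.52% of all regions.

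Of the members tested, centring gave 3 lower and 12 higher, fold enrichment 1 and 0, and limma without the trend 3 and 2. Over all regions, centring gave 7298 lower and 7815 higher, or 12.5% and 13.3%. Fold enrichment gave 2053 and 1415, or 3.51% and 2.42%. Limma without the trend gave 5409 and 2197, or 9.24% and 3.75%. Leaving out 1 library gave 0 to 5 members lower and 0 to 5 higher, and 141 to 12423 regions lower and 99 to 3785 higher over all regions. No member passed without WT replicate 1 or WT replicate 2, when the lone WT library is assumed to vary like the IRF8KO libraries. Both genotypes have replicates 1 and 2, but no label says that a number marks a shared animal or batch. With the replicate number as a block, 0 members were lower and 0 higher, and 877 and 330 of all regions. Deviations of same-numbered libraries had r = 0.00432 across regions, with only 2 pairs. The cause of these moves was not tested.

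Of the 22 regions with a peak in all 4 libraries that were refitted under every alternative, the sign turned at 5, none past the threshold without centring. The Lpl start region gave 0.13 centred, 0.24 on fold enrichment and -0.46 to 0.11 with 1 library left out. Lpl at +0.9 kb gave 0.0095 on fold enrichment. Gpnmb at +37.3 kb gave 0.13 centred, 0.088 on fold enrichment and -0.68 to 0.32 with 1 library left out. Fabp5 at -2.9 kb gave 0.0080 centred and 0.54 on fold enrichment, and Ch25h at +10.5 kb gave -0.036 to 1.13 with 1 library left out. The 3 members past the threshold kept their sign in all 9 alternatives, and passed in 6 (Lgals3 at -5.6 kb), 5 (Fabp5 at +13.5 kb) and 4 (Ch25h at +3.2 kb) of them. These counts include fits with 1 library left out, where the lone library of a genotype is assumed to vary like those of the other genotype. With the block the limma adjusted p values of the 3 members were 0.0869, 0.10 and 0.224.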
